A study of Sus scrofa with 19 samples.

Results

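The expression of 10 glucocorticoid-responsive genes was followed in the RNA-seq libraries of 19 pigs, labelled as left ventricular myocardium. The genes were the glucocorticoid receptor itself (NR3C1), 8 genes that the receptor is known to induce (FKBP5, TSC22D3, ZBTB16, KLF9, KLF15, SGK1, DUSP1 and ANGPTL4) and HSD11B1, which makes active glucocorticoid inside cells. They were found by symbol in the gene table that the authors deposited and were carried to the raw counts by Ensembl identifier, with no threshold on any measured value. All 10 were present among the 25879 genes counted, and all 10 were among the 13552 genes that passed the filter on low counts.

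Each library came from 1 Large White pig, described as female by the labels. Group DOX (n = 5) received doxorubicin and group MYO (n = 5) received Myocet, a liposomal doxorubicin, in 3 cycles of 60 mg per square metre of body surface, and their myocardium was taken at 3 months. Group RemoLV (n = 3) had an anterior wall infarction by 90 min of balloon occlusion followed by reperfusion, group Hyper (n = 3) had a stenosis of the aortic isthmus made with a 9 mm stent, and group Control (n = 3) was sham-operated by the labels but untreated by the study's methods. These 3 groups were sampled at 6 months. By the labels, samples of RemoLV came from the posterior wall, remote from the infarct, and all others from the anterior wall. Drug groups therefore differed from the other groups in month of sampling as well as in treatment, and these cannot be told apart. The labels stop the drug groups at 3 months for poor health of the animals.

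The libraries carried 2 sets of names. Sample labels of the count files (here the file labels) and the column headings of the authors' gene table (here the table names) named 8 of the 19 libraries to different groups. Control and RemoLV were exchanged as whole groups, and DOX 5 and MYO 1 were exchanged with each other. Which naming is right was not settled here. The file labels were taken as the main ones, and each comparison is given under both. Hyper holds the same libraries under both, and so do DOX and MYO pooled.

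Levels are given as CPM, the count of a gene relative to its library total after scaling. Total counts ranged from 9527710 to 20370209, with a median of 14527230. The libraries labelled RemoLV stood apart in their cell type markers: the summed level of the 8 ventricular cardiomyocyte markers found was 2594 to 3643 CPM there and 16125 to 27288 CPM elsewhere. Their summed level of 10 atrial markers was 9852 to 13168 CPM, against 212 to 2518 CPM elsewhere, and MYL2, the ventricular regulatory light chain, was at 58.0 ± 50.8 CPM (SD, n = 3) against 15850 ± 2250 CPM in Control. MYL4, the atrial essential light chain, was at 6029 to 8130 CPM in these 3 libraries and at most at 21.9 CPM in any other. These values go against the label of left ventricular wall, which is kept here as a name. The 9 fibroblast markers summed to 10834 to 12523 CPM in RemoLV, to 4785 to 7348 CPM in the 10 drug libraries and to 1670 to 3999 CPM in Control and Hyper, without overlap between these sets. Y chromosome genes summed to 152 to 226 CPM in every DOX and MYO library and to at most 0.206 CPM in every other library, although the labels describe all the pigs as female. The part of these differences in the results below was not tested. In bulk tissue, fewer cells of a type and less RNA per cell cannot be told apart.

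Glucocorticoids such as cortisol cross the cell membrane and bind the glucocorticoid receptor, which waits in the cytosol in a complex with HSP90 and its co-chaperones. The bound receptor enters the nucleus, sits as a dimer on glucocorticoid response elements (a pair of inverted repeats with a short spacer) and raises or lowers the transcription of nearby genes. In the heart the receptor is known to act in cardiomyocytes, where it influences metabolism, calcium handling and survival. FKBP5, TSC22D3, ZBTB16 and KLF9 are used in many tissues as readouts of the pathway because hormone induces them within hours.

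The response element letters were looked for in the genes themselves, since the receptor sits on such elements. Each gene with 10 kb upstream was searched in Sscrofa11.1 for the full palindrome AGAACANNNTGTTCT and for the looser core GNACANNNTGTNC, whose letters lie within the full palindrome. Both read the same on both strands. FKBP5 held both of the exact full palindromes found among the 10 genes, each in an intron. They are printed with 7 flanking bases on the strand of the gene, beside the core match of ZBTB16 that keeps the GAACA and TGTTC arms and the upstream core match of KLF9. Capitals mark the motif.
FKBP5 intron, chr7:31513969-31513983, minus strand: ttgtttgAGAACACTTTGTTCTggccttt
FKBP5 intron, chr7:31467790-31467804, minus strand: cacattcAGAACAGGGTGTTCTgtgctct
ZBTB16 intron, chr9:41803848-41803860, plus strand: ttaatatGAACACTCTGTTCtcgcgtt
KLF9 upstream, chr1:223754330-223754342, minus strand: gtaaaaaGGACAAACTGTTCcacaaca

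The FKBP5 palindromes lay 36728 and 82907 bases into the gene. The chromosomes hold 408 such palindromes in all, and 1.96% of windows as long as the FKBP5 window hold at least 1. The core was found 31533 times and is no rarity in a long gene: FKBP5 and ZBTB16 held 6 each, and 77.0% and 91.9% of windows of their lengths hold at least 1. NR3C1 and SGK1 had 3 core matches each, KLF9 and HSD11B1 had 1 each, and the windows of TSC22D3, KLF15, ANGPTL4 and DUSP1 had none of these letters. In the promoters (250 bases before to 50 after the gene start) the single arm AGAACA, on either strand, was present in 1 of the 10 genes, NR3C1, and in 12.1% of 19559 promoters. A match shows letters and not binding. The lack of a match does not show that a gene has no response element, since sites with other letters or outside the windows were not searched.

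**Figure D1:**
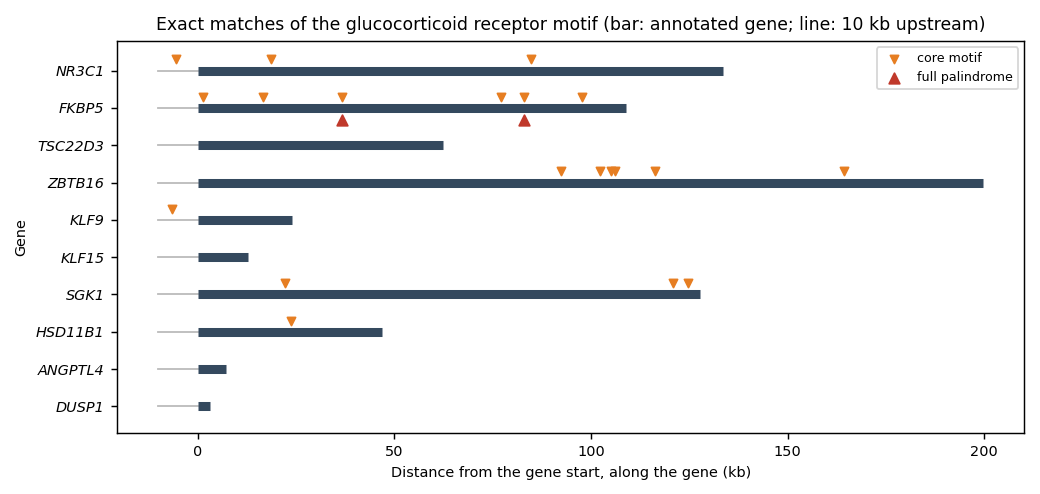
Positions of exact motif matches in the 10 genes, drawn by distance from the gene start in kb along the gene. Bars are the annotated genes, thin lines the 10 kb upstream, orange triangles the core motif and red triangles the full palindrome, which appears 2 times, both in FKBP5.

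Against Control by the file labels, FKBP5 and ZBTB16 were downregulated in DOX, MYO and RemoLV, and no member was called in Hyper. A gene was called at a Benjamini-Hochberg adjusted p of at most 0.05 over all 13552 genes tested (edgeR quasi-likelihood test). In DOX 4 of 10 members were lower and 0 higher, where 21.1% of all genes were called lower and 21% higher. In MYO 3 were lower and 0 higher, against 21.7% and 20.7% of all genes. In RemoLV 5 were lower and 1 higher, against 24% and 23.1% of all genes. In Hyper 0 of 10 were called, as were 0% of all genes, although 1 member (TSC22D3) and 2418 genes had an unadjusted p under 0.05 and DESeq2 called 104 genes higher and 207 lower. The median log2 fold change over the 10 members was -0.33 for DOX, -0.45 for MYO, -1.16 for RemoLV and -0.02 for Hyper, beside all-gene medians of 0.03, 0.02, 0.02 and 0.01. Other cell type markers moved in these comparisons: of 8 leukocyte markers 5 were higher and 1 lower in DOX (median 0.82), 1 and 1 in MYO and 4 and 1 in RemoLV, and of 3 blood markers 3 were lower in DOX (median -2.33), 0 in MYO and 2 in RemoLV. Their part in the members' values was not tested.

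Scaling moved the balance of calls. Without TMM scaling the all-gene median shifted to 0.45 for DOX, 0.44 for MYO, 0.52 for RemoLV and 0.17 for Hyper, and the genes called higher and lower became 5622 and 705 in DOX (2842 and 2862 with it), 5499 and 753 in MYO (2804 and 2944) and 6178 and 1038 in RemoLV (3136 and 3257). Members called higher and lower were then 0 and 2 in DOX, 1 and 2 in MYO and 4 and 4 in RemoLV. FKBP5 and ZBTB16 were the 2 lower members in both drug groups under that scaling, TSC22D3 was called higher in MYO and RemoLV, and NR3C1 (0.50, adjusted p = 0.00702) and HSD11B1 (0.91, adjusted p = 0.00207) were called higher in RemoLV.

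The table names gave another picture. Their Control libraries are those labelled RemoLV, and DOX 5 and MYO 1 are exchanged as well. The part of each exchange in the DOX and MYO counts was not tested. KLF9, KLF15 and SGK1 were higher and NR3C1, HSD11B1 and ANGPTL4 were lower in DOX, so that 3 of 10 members were called in each direction against 15% of all genes called higher and 14.6% called lower. In MYO 2 members were higher (KLF9 and KLF15) and NR3C1, HSD11B1 and ANGPTL4 were lower, against 14.8% and 14.4%. RemoLV had 5 members higher and 1 lower, against 24% and 23.2%, which is the mirror image of the comparison by file labels. In Hyper 5 were higher (FKBP5, ZBTB16, KLF9, KLF15 and SGK1) and 0 lower, against 18.7% and 17.2%. Without TMM scaling 2 members were higher and 3 lower in Hyper, with 970 genes higher and 4134 lower (2528 and 2328 with it), and in RemoLV 4 members were called in each direction, with 1036 genes higher and 6177 lower (3253 and 3149). Every comparison with Control shares the same 3 Control libraries, so the comparisons are not independent of each other. In the main fits (TMM scaling, all libraries, 1 model of 5 groups) NR3C1 was the only member called in the same direction under both namings in both DOX and MYO against Control. By the file labels its calls were lost without TMM scaling, and in DOX also with only the compared groups in the fit. Other losses are given below. HSD11B1 was called lower in DOX under both namings in the main fits.

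**Figure D2:**
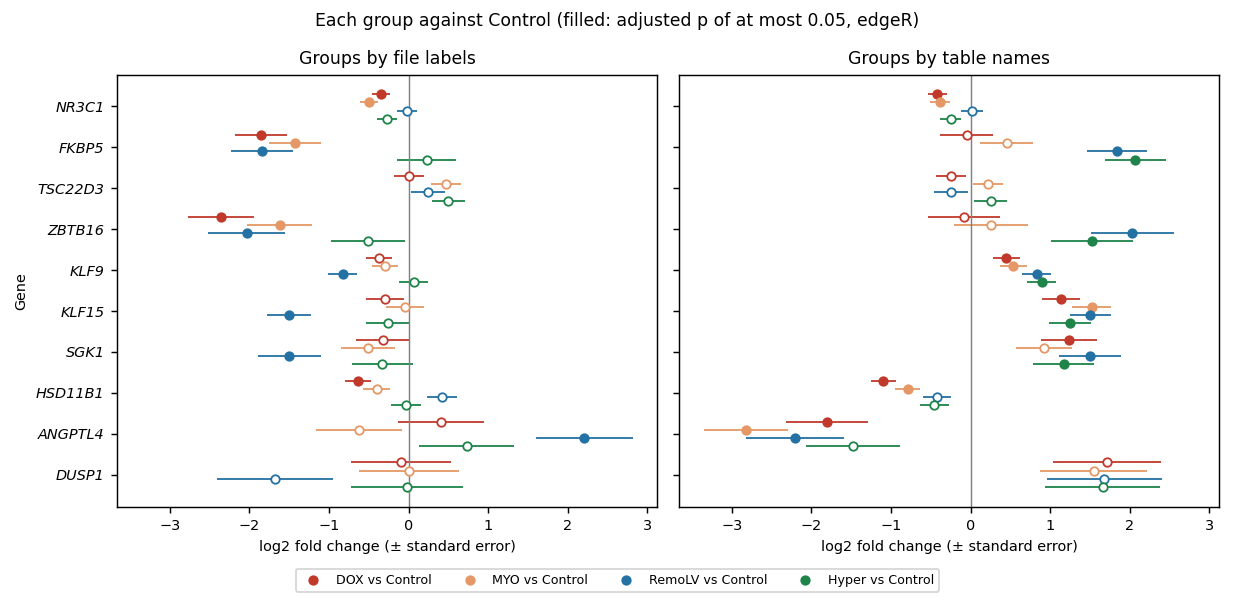
Log2 fold change of each member against Control with its standard error, by file labels (left) and by table names (right); colours give the 4 groups and filled points have an adjusted p of at most 0.05. FKBP5 lies at -1.85 in DOX on the left and at -0.05 on the right.

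NR3C1 (ENSSSCG00000014401, chr2:144822937-144956451, minus strand) encodes the glucocorticoid receptor. Its level was 67.9, 70.5 and 94.6 CPM in Control 1, 2 and 3. The 5 DOX libraries gave 56.5, 62.8, 59.2, 60.0 and 66.5 CPM, and the 5 MYO libraries 48.6, 51.3, 57.3, 60.6 and 58.3 CPM. The libraries labelled RemoLV stood at 74.0, 76.9 and 79.0 CPM. All 10 drug libraries lay below all 3 Control and all 3 RemoLV libraries. Hyper was split, with 69.5 and 69.8 CPM in 2 pigs and 53.8 CPM in the third. The log2 fold change was -0.35 ± 0.11 (SE, adjusted p = 0.0213, edgeR) in DOX and -0.49 ± 0.11 (adjusted p = 0.00242) in MYO. Under the table names it was -0.42 ± 0.12 (adjusted p = 0.0146), called in 18 of 19 fits that left out 1 library each and lost without Control 3 (adjusted p = 0.0584), and -0.38 ± 0.12 (adjusted p = 0.0235), called in 16 of 19 and lost without Control 2, Control 3 or MYO 2 of that naming (adjusted p of 0.0564 to 0.0843). By the file labels the calls were lost without trimmed mean of M-values (TMM) scaling, at 0.09 (adjusted p = 0.577) in DOX and -0.05 (adjusted p = 0.791) in MYO, and leaving out Control 3 gave -0.18 (adjusted p = 0.237) in DOX. With only the compared groups in the fit the DOX value was -0.35 and not called (adjusted p = 0.0559). By the table names NR3C1 was called lower without TMM scaling as well, at -0.49 (adjusted p = 0.0101) and -0.47 (adjusted p = 0.0147).

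FKBP5 (ENSSSCG00000001549, chr7:31441764-31550704, minus strand) encodes a co-chaperone that lowers the affinity of the receptor for hormone and closes a feedback loop. It was at 181, 289.7 and 181 CPM in Control and at 309, 232 and 222 CPM in Hyper. In DOX it was at 47.6, 39.3, 33.8, 61.2 and 119 CPM, in MYO at 57.7 to 111 CPM with a median of 74.7 CPM, and in RemoLV at 66.1, 41.4 and 74.3 CPM. The 6 libraries labelled Control or Hyper thus lay between 181 and 309 CPM and the other 13 between 33.8 and 119 CPM, with no overlap. FKBP5 was 3.61-fold lower in DOX (log2 fold change -1.85 ± 0.33, adjusted p = 0.000304), 2.68-fold lower in MYO (-1.42 ± 0.33, adjusted p = 0.00224) and 3.59-fold lower in RemoLV (-1.84 ± 0.39, adjusted p = 0.000829), each by edgeR. These calls held in all 19 fits that left out 1 library each. With Control by the table names, DOX differed by -0.05 ± 0.33 (adjusted p = 0.927) and MYO by 0.45 ± 0.33 (adjusted p = 0.334), while Hyper was 4.20-fold higher (2.07 ± 0.38, adjusted p = 0.000387). Whether FKBP5 was low in the drug groups or high in Hyper thus depended on the naming. Fibroblast markers split the libraries in the same way as FKBP5 and ZBTB16, and by the file labels 4 of 9 were called higher in DOX, 4 in MYO (with 1 lower) and 6 in RemoLV, against 21%, 20.7% and 23.1% of all genes. By the table names 0 were higher, and 4 were lower in DOX, 5 in MYO and 5 in Hyper, against 14.6%, 14.4% and 17.2%. The part of these markers in the FKBP5 and ZBTB16 values was not tested.

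TSC22D3 (ENSSSCG00000030241, chrX:88171325-88233583, minus strand), the leucine zipper protein GILZ that carries part of the anti-inflammatory action of glucocorticoids, varied about as much within Control as between groups. Control gave 54.0, 89.3 and 57.3 CPM, Hyper 80.7, 98.4 and 105 CPM, and RemoLV 81.7, 72.7 and 84.3 CPM. In MYO 4 libraries stood at 95.2 to 105 CPM and MYO 5 at 67.7 CPM, whereas in DOX 4 libraries stood at 51.9 to 65.9 CPM and DOX 5 at 95.3 CPM. All groups overlapped Control, and no comparison with Control was called under either naming with all libraries and TMM scaling. Without Control 2 TSC22D3 was called higher in MYO (0.74, adjusted p = 0.00594), RemoLV (0.51, adjusted p just under the threshold) and Hyper (0.77, adjusted p = 0.0195) by the file labels. With all libraries the values were 0.47 ± 0.19 (adjusted p = 0.0562), 0.25 ± 0.21 and 0.50 ± 0.21. In MYO the call also appeared without DOX 5 (adjusted p = 0.0286) or MYO 5 (adjusted p = 0.0241), and under the table names TSC22D3 was called lower in RemoLV without RemoLV 2 (-0.51, adjusted p = 0.0497), which is the same library as Control 2 of the file labels.

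ZBTB16 (ENSSSCG00000030095, chr9:41639536-41839254, plus strand) encodes PLZF, a zinc finger transcription factor that glucocorticoids induce strongly in many cells. The Control libraries gave 378, 210.4 and 331 CPM and the Hyper libraries 239, 211 and 195 CPM. DOX gave 62.3, 37.9, 56.3, 45.9 and 98.1 CPM and RemoLV 61.2, 48.1 and 116 CPM. MYO was uneven, with 151, 141 and 129 CPM in MYO 1, 2 and 4 and 40.8 and 37.4 CPM in MYO 3 and 5. Every library of DOX, MYO and RemoLV lay below every library of Control and Hyper. The decrease was 5.10-fold in DOX (log2 fold change -2.35 ± 0.41, adjusted p = 0.000285), 3.07-fold in MYO (-1.62 ± 0.41, adjusted p = 0.00435) and 4.10-fold in RemoLV (-2.04 ± 0.49, adjusted p = 0.00233), and it was called in all 19 fits without 1 library. Under the table names DOX differed from Control by -0.08 ± 0.46 (adjusted p = 0.908) and MYO by 0.26 ± 0.46 (adjusted p = 0.715). Hyper was then 2.88-fold higher (1.52 ± 0.52, adjusted p = 0.0284), a call kept in 15 of 19 such fits and lost without Control 1, Control 2, Hyper 2 or Hyper 3 of that naming, with adjusted p up to 0.109, and lost without TMM scaling (adjusted p = 0.0697).

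KLF9 (ENSSSCG00000021646, chr1:223723613-223747661, minus strand) and KLF15 (ENSSSCG00000036742, chr7:53877813-53890558, minus strand) are Krüppel-like factors induced by the receptor. KLF15 is known in heart as a regulator of lipid and amino acid metabolism and of the ion channel subunit KCNIP2. KLF9 was at 116, 161 and 114 CPM in Control, at 172, 102 and 134 CPM in Hyper and at 71.4, 68.0 and 80.2 CPM in RemoLV, and the 10 drug libraries lay between 81.3 and 119.8 CPM. KLF15 was at 86.3, 56.0 and 91.1 CPM in Control, at 64.8, 66.2 and 63.8 CPM in Hyper and at 25.9, 28.4 and 27.7 CPM in RemoLV. For KLF15 the DOX libraries spread from 40.5 to 105 CPM and the MYO libraries from 57.5 to 90.0 CPM. Both genes were therefore lowest in the 3 libraries labelled RemoLV, below all 16 others, in which the ventricular markers were lowest as well.

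Against Control by the file labels, KLF9 was 1.78-fold lower in RemoLV (log2 fold change -0.83 ± 0.18, adjusted p = 0.00130, edgeR) and KLF15 2.84-fold lower (-1.51 ± 0.28, adjusted p = 0.00028). The KLF9 call was lost without TMM scaling (-0.36, adjusted p = 0.206). In the drug groups neither gene was called with all libraries: KLF9 was at -0.37 ± 0.16 (adjusted p = 0.0705) in DOX and -0.30 ± 0.16 (adjusted p = 0.149) in MYO, and KLF15 at -0.30 ± 0.24 and -0.04 ± 0.24. Without DOX 5 both were called lower in DOX (KLF9 -0.43, adjusted p = 0.0478, and KLF15 -0.55, adjusted p = 0.0299), and KLF9 was also called there without Hyper 1 (adjusted p = 0.0461), without Hyper 2 (adjusted p = 0.0490) and by DESeq2 (adjusted p = 0.0479). When the libraries labelled RemoLV served as Control, by the table names, KLF15 was 2.20-fold higher in DOX (adjusted p = 0.00169) and 2.88-fold higher in MYO (adjusted p = 0.00015). KLF9 was then 1.37-fold higher in DOX (adjusted p = 0.0482) and 1.45-fold higher in MYO (adjusted p = 0.0213), and both calls were lost without TMM scaling (adjusted p = 0.214 and 0.140). The KLF9 call in DOX was kept in only 7 of 19 fits without 1 library, with adjusted p from 0.0278 to 0.152, and was lost without each library named Control, DOX 1, 2, 4 or 5, MYO 1, 2, 4 or 5, or Hyper 1. In MYO it was lost without Control 1 (adjusted p = 0.0694) or Control 2 (adjusted p = 0.0856) of that naming.

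SGK1 (ENSSSCG00000021443, chr1:29625786-29753619, plus strand) encodes a kinase that regulates ion channels and transporters and is induced by both glucocorticoids and mineralocorticoids. Its level was 79.1, 44.7 and 69.0 CPM in Control and 56.0, 40.6 and 56.9 CPM in Hyper. DOX spread from 20.7 to 89.2 CPM and MYO from 30.9 to 61.4 CPM, while RemoLV stood at 21.1, 31.2 and 15.4 CPM. SGK1 was 2.83-fold lower in RemoLV than in Control (log2 fold change -1.50 ± 0.39, adjusted p = 0.00458), and in DOX and MYO it differed from Control by -0.32 ± 0.34 and -0.51 ± 0.34, neither called. Under the table names SGK1 was 2.36-fold higher in DOX (adjusted p = 0.014) and 2.25-fold higher in Hyper (adjusted p = 0.0235). Those calls were lost without Control 1 (adjusted p = 0.0532 and 0.0710) and without Control 3 (adjusted p = 0.0788 and 0.101) of that naming, and in Hyper also without Hyper 1 (adjusted p = 0.0586), without Hyper 3 (adjusted p = 0.0630) or without TMM scaling (adjusted p = 0.0754). In MYO SGK1 was at 0.92 ± 0.35 (adjusted p = 0.057), and it was called higher in 5 of the 19 fits, with an adjusted p down to 0.0191 without MYO 1, by DESeq2 (adjusted p = 0.0263) and with only the compared groups in the fit (adjusted p = 0.0492).

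DUSP1 (ENSSSCG00000016991, chr16:51457924-51461095, plus strand) encodes a phosphatase that switches off MAP kinases, and it is induced both by glucocorticoids and, as an immediate-early gene, by stress. Single libraries stood out in 3 groups. DOX 1 was at 304 CPM against 32.9 to 96.3 CPM in the other DOX libraries, MYO 4 at 259.7 CPM against 56.7 to 99.4 CPM in the other MYO libraries, and Hyper 1 at 205 CPM against 60.2 and 67.0 CPM in the other Hyper libraries. Control stood at 137, 93.3 and 107 CPM and RemoLV at 35.9, 37.8 and 31.1 CPM. With all libraries edgeR in its model of 5 groups called DUSP1 in no comparison under either naming, whereas DESeq2 called it higher in DOX by the table names (1.71, adjusted p = 0.0414). With only the compared groups in the edgeR fit it was called lower in RemoLV by the file labels (-1.67, adjusted p = 0.000518) and higher in Hyper by the table names (1.67, adjusted p = 0.0135). In RemoLV it was at -1.68 ± 0.73 (adjusted p = 0.065) by the file labels, and it was called lower there without DOX 1 (adjusted p = 0.0162) or MYO 4 (adjusted p = 0.0446). Under the table names it was at 1.72 ± 0.68 in DOX (adjusted p = 0.0634), 1.55 ± 0.67 in MYO (adjusted p = 0.0925) and 1.66 ± 0.73 in Hyper (adjusted p = 0.0823), and it was called higher without MYO 4 in DOX (adjusted p = 0.0341) and Hyper (adjusted p = 0.0454) and without DOX 1 in MYO (adjusted p = 0.0430) and Hyper (adjusted p = 0.0355). The DOX call also appeared without DOX 3 (adjusted p = 0.0457) or DOX 4 (adjusted p = 0.0427).

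HSD11B1 (ENSSSCG00000015616, chr9:133231451-133278396, minus strand) encodes the enzyme that turns inactive cortisone into cortisol inside cells. It was at 18.0, 19.0 and 15.8 CPM in Control, at 16.2, 16.8 and 18.7 CPM in Hyper and at 29.1, 21.6 and 20.1 CPM in RemoLV. DOX gave 10.5, 9.84, 11.5, 11.7 and 13.3 CPM, all below Control, and MYO gave 11.6, 16.8, 9.24, 13.7 and 15.5 CPM, which overlapped Control in 1 library. HSD11B1 was 1.55-fold lower in DOX (log2 fold change -0.63 ± 0.17, adjusted p = 0.00602), called in all 19 fits without 1 library, and was at -0.40 ± 0.17 (adjusted p = 0.063) in MYO, where it was called lower without MYO 2 (adjusted p = 0.0263) or MYO 5 (adjusted p = 0.0484) and by DESeq2 (adjusted p = 0.0432). In RemoLV, where all 3 libraries lay above Control, it was at 0.42 ± 0.19 (adjusted p = 0.0705) and was called higher without MYO 3 (adjusted p = 0.0412) and with at least 10 counts asked of every library (adjusted p = 0.0461). Under the table names HSD11B1 was 2.14-fold lower in DOX (adjusted p = 4.60e-05) and 1.73-fold lower in MYO (adjusted p = 0.00105). In Hyper it was then at -0.45 ± 0.18 (adjusted p = 0.053), and it was called lower there by DESeq2 (adjusted p = 0.0418), without TMM scaling (adjusted p = 0.00664), with at least 10 counts in every library (adjusted p = 0.0384) and in 3 of 19 fits that left out 1 library (Control 3, MYO 2 or MYO 3 of that naming). The DOX value by file labels was -0.22 without TMM scaling (adjusted p = 0.362).

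Other genes of corticosteroid handling, among them enzymes, a receptor and a binding protein, were read from a list of 12, of which 6 were tested. H6PD, which feeds HSD11B1 with its cofactor, was at 39.2 ± 4.95 CPM in Control (SD, n = 3), at 70.5 ± 12.4 CPM in DOX (n = 5) and at 62.8 ± 12.3 CPM in MYO (n = 5). H6PD was higher in DOX (log2 fold change 0.85, adjusted p = 0.000821) and in MYO (0.68, adjusted p = 0.00378), and HSD11B1 was lower in DOX. The H6PD call under the table names was kept in MYO (0.48, adjusted p = 0.0429) and not in DOX (0.39, adjusted p = 0.0966). NR3C2, the mineralocorticoid receptor that also binds cortisol, was at 28.5 ± 9.09 CPM in Control and 41.0 ± 4.72 CPM in DOX (0.52, adjusted p = 0.0253), and by the table names it was higher in DOX (0.95, adjusted p = 0.00107), MYO (0.80, adjusted p = 0.00403) and Hyper (0.68, adjusted p = 0.0154). HSD11B2, which inactivates cortisol, was near the floor, with group means of 0.236 to 1.02 CPM (log2 fold change 1.98 in RemoLV, adjusted p = 0.0106). In the whole list 3 of 6 genes were higher and 1 lower in DOX, 1 and 1 in MYO, 1 and 0 in RemoLV, and 0 and 0 in Hyper by the file labels, where 21% of all genes were higher and 21.1% lower in DOX, 20.7% and 21.7% in MYO and 23.1% and 24% in RemoLV. SRD5A1, a steroid reductase, was the one that fell in DOX (-1.89, adjusted p = 0.0203) and MYO (-2.15, adjusted p = 0.0111). With the table names the list gave 1 higher and 1 lower in DOX, 3 and 0 in MYO, 0 and 2 in RemoLV and 1 and 1 in Hyper, beside 14.4% to 15% of all genes in each direction in the drug groups and 17.2% to 24% in the others, with PGRMC1, a membrane steroid-binding protein, lower in DOX (-0.78, adjusted p = 0.00122).

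ANGPTL4 (ENSSSCG00000013599, chr2:70905767-70912892, minus strand) encodes a secreted inhibitor of lipoprotein lipase that answers to glucocorticoids, to fatty acids through PPAR receptors and to hypoxia. The RemoLV libraries gave 39.0, 63.8 and 59.4 CPM against 11.6, 15.0 and 8.39 CPM in Control and 18.5, 20.4 and 19.4 CPM in Hyper. MYO was uniform at 6.85 to 8.24 CPM, and 4 DOX libraries stood at 4.27 to 8.40 CPM, but DOX 1 reached 49.3 CPM. ANGPTL4 was 4.62-fold higher in RemoLV than in Control (log2 fold change 2.21 ± 0.61, adjusted p = 0.00643), the only member that edgeR called higher there with all libraries, TMM scaling and the filterByExpr filter. DOX 1 set the outcome in the drug groups: with it the differences from Control were 0.41 ± 0.54 in DOX and -0.62 ± 0.55 in MYO, neither called, and without it they were -0.77 (adjusted p = 0.0103) and -0.63 (adjusted p = 0.0204), both called lower. With only the compared groups in the fit ANGPTL4 was also called lower in MYO (-0.64, adjusted p = 0.0217). DOX 1 also had the largest sum of the 14 immediate-early genes found, 8604 CPM against 269 to 1062 CPM in the other 18 libraries; its part in the ANGPTL4 and DUSP1 values was not tested. Under the table names ANGPTL4 was 3.49-fold lower in DOX (log2 fold change -1.80, adjusted p = 0.0129) and 7.08-fold lower in MYO (adjusted p = 0.000621). The DOX value became -2.99 without DOX 1, and the call was lost with only the compared groups in the fit (adjusted p = 0.0727). In Hyper it was at -1.48 ± 0.59 (adjusted p = 0.0604), called lower without DOX 1 (adjusted p = 7.22e-05) or DOX 3 (adjusted p = 0.0382), with only the compared groups in the fit (adjusted p = 0.000556) and without TMM scaling (adjusted p = 0.0200). The 7 adipocyte markers, whose cells are a main source of ANGPTL4, summed to 326 to 409 CPM in the libraries labelled RemoLV and to 218 to 401 CPM in the others. Of the 6 tested, 2 were higher and 1 lower in RemoLV by the file labels (median log2 fold change 1.42), 0 higher and 1 lower in DOX and in MYO, and by the table names 1 was higher and 5 lower in DOX and in MYO. The all-gene shares were 23.1% higher and 24% lower in RemoLV by the file labels, and 14.4% to 15% in each direction in DOX and MYO by the table names. The part of these markers in the ANGPTL4 values was not tested.

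**Figure D3:**
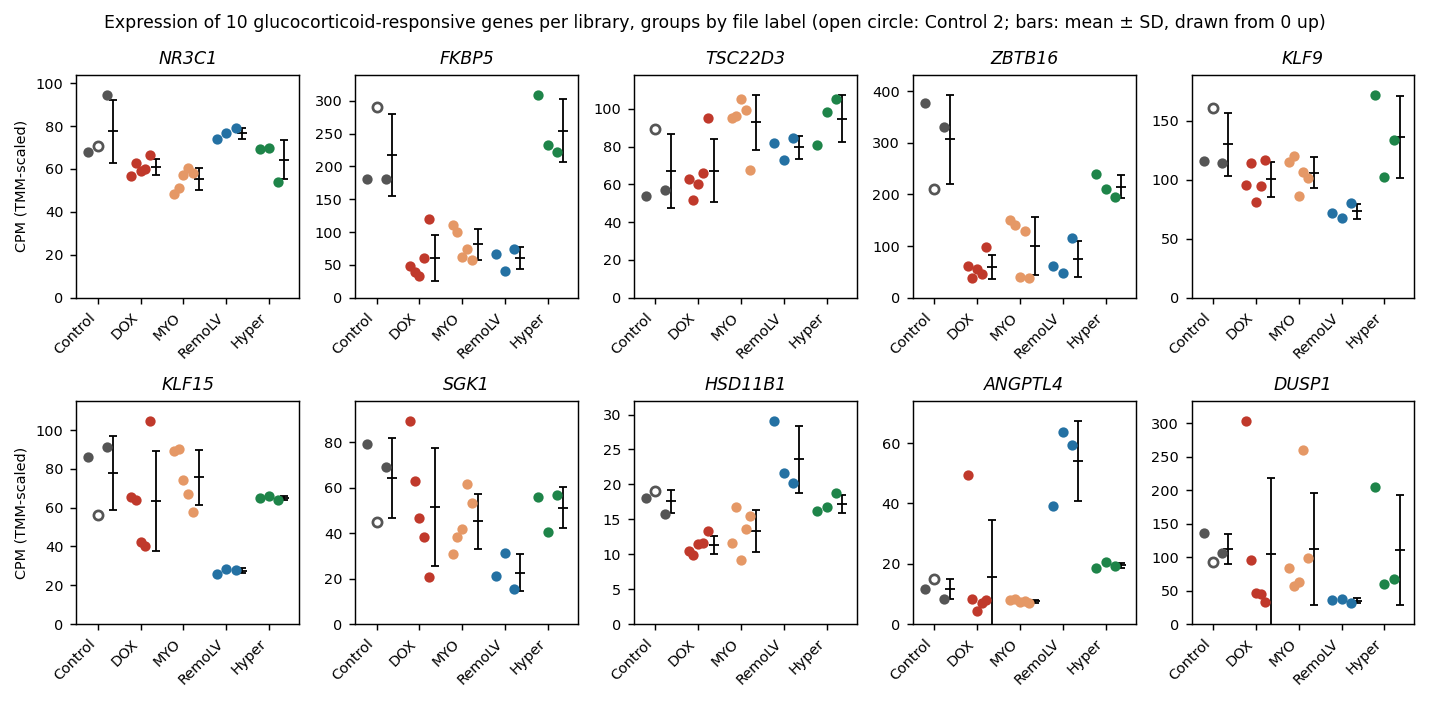
CPM of the 10 members in each of the 19 libraries, groups by file label, each panel with its own linear axis from 0; points are libraries, the open circle is Control 2 and the bars are the group mean and SD. FKBP5 and ZBTB16 are high in Control and Hyper only, KLF15 is lowest in RemoLV, and single DOX, MYO and Hyper libraries stand out for DUSP1.

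By the file labels, leaving out Control 2 changed the calls of TSC22D3 and of no other member. The Control 2 of the table names, named in some fits above, is another library, RemoLV 2 by the file labels. Control 2 of the file labels was the highest Control library for 5 members and the lowest for 4, and for 6 of the 10 it lay within the range of the Hyper libraries. Over all 13552 genes tested the shares were 42.3%, 40.6% and 57.3%, so these counts are near those of genes at large. Relative to the mean of Control 1 and 3 it held 1.60-fold the FKBP5, 1.61-fold the TSC22D3 and 1.40-fold the KLF9 level. The same ratio was 0.593 for ZBTB16, 0.631 for KLF15 and 0.604 for SGK1. Control 2 also differed in composition: its 10 most abundant genes took 24.6% of counts and its TMM factor was 0.965, whereas Control 1 and 3 had 32.3% and 33.7% and factors of 0.735 and 0.696. Blood markers summed to 36.4 CPM in it against 353 and 340 CPM in Control 1 and 3, and the immediate-early genes to 423 against 1042 and 1062 CPM. The part of these differences in the members' values was not tested. The CPM printed here are scaled by these factors. The FKBP5 and ZBTB16 decreases in DOX, MYO and RemoLV by the file labels were called without TMM scaling as well.

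Hyper gives a comparison that the naming does not touch. Between the 10 drug libraries and the 3 Hyper libraries, 4 of 10 members were lower and 0 higher, against 16.9% and 15.8% of all genes under each naming. Without TMM scaling 2 members were lower and 0 higher, with 3894 genes higher and 760 lower (2136 and 2286 with it) by the file labels. FKBP5 was at 33.8 to 119 CPM (median 61.7) in the drug libraries and at 222 to 309 CPM in Hyper, a 3.64-fold difference (log2 fold change -1.86 ± 0.28, adjusted p = 6.83e-05, edgeR). ZBTB16 was at 37.4 to 151 CPM (median 59.3) against 195 to 239 CPM, 2.78-fold lower (-1.47 ± 0.35, adjusted p = 0.0039). Neither gene overlapped between these groups, and both calls held in all 19 fits without 1 library. HSD11B1 was at 9.24 to 16.8 CPM in the drug libraries and 16.2 to 18.7 CPM in Hyper, 1.40-fold lower (-0.49 ± 0.15, adjusted p = 0.0182), and the call was lost without Hyper 3 (adjusted p = 0.0776). KLF9 was at -0.40 ± 0.14 (adjusted p = 0.040), kept in 12 of 19 such fits and lost without Hyper 1 (-0.19, adjusted p = 0.406), Hyper 3, DOX 3, DOX 4, MYO 3, MYO 4 or MYO 5. Without DOX 1, ANGPTL4 was lower too (-1.44, adjusted p = 1.42e-05), whereas with it the value was -0.84 ± 0.46 (adjusted p = 0.174). Of the 9 fibroblast markers 4 were higher and 0 lower in the drug libraries, with the summed levels given above, and of 8 leukocyte markers 3 were higher and 1 lower by the file labels and 4 and 1 by the table names, with sums of 183 to 436 CPM against 174 to 236 CPM in Hyper. Their part in these values was not tested. The drug libraries and Hyper also differed in month of sampling and in Y chromosome transcripts, so drug, age and animal cannot be told apart.

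**Figure D4:**
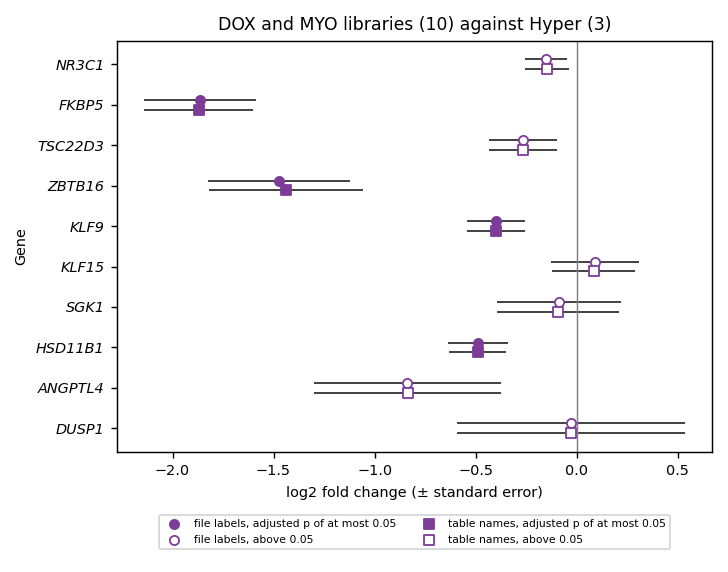
Log2 fold change with standard error of the 10 DOX and MYO libraries against the 3 Hyper libraries, circles by file labels and squares by table names; filled points have an adjusted p of at most 0.05. FKBP5 at -1.86 and ZBTB16 at -1.47 lie farthest from 0.

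Free and liposomal doxorubicin were given at the same dose and sampled at the same month. No member was called between DOX and MYO under either naming, as was none of the 13552 genes (0%), with unadjusted p under 0.05 for 2 members (TSC22D3 and ANGPTL4) and 960 genes by the file labels and for 3 members and 1095 genes by the table names. The ANGPTL4 difference rested on DOX 1, and its log2 fold change by the file labels was -0.14 without that library. DESeq2 called 0 genes higher and 2 lower by the file labels, and 10 higher and 20 lower by the table names. TSC22D3 had a log2 fold change of -0.47 (95% interval -0.81 to -0.12, unadjusted p = 0.011, adjusted p = 0.692) and was not called. FKBP5 differed by -0.43 (95% interval -1.04 to 0.18) and ZBTB16 by -0.73 (95% interval -1.50 to 0.04).

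Members were set against each other within the 10 drug libraries. Pearson correlations of log2 CPM were computed for 45 pairs of members with permutation tests, and none passed after Benjamini-Hochberg adjustment, by Pearson or by Spearman, while 10 pairs had an unadjusted p under 0.05. FKBP5 and TSC22D3 had r = 0.81 (permutation p = 0.00665, adjusted 0.150) and rho = 0.75 (adjusted permutation p = 0.216), and r = 0.79 without the 2 libraries farthest from the FKBP5 median. For FKBP5 and KLF15 r was 0.77 and rho 0.82 (adjusted permutation p = 0.150 and 0.158), and r was 0.57 without the 2 farthest libraries. FKBP5 and ZBTB16 gave r = 0.74, rho = 0.66 and, without 2 libraries, r = 0.83 (adjusted permutation p = 0.187 for r). SGK1 ran against FKBP5, with r = -0.70 and rho = -0.72 (adjusted permutation p = 0.187 and 0.216), and with DUSP1, with r = 0.82 and rho = 0.81 (adjusted permutation p = 0.144 and 0.158) and r = 0.60 without 2 libraries. ANGPTL4 and DUSP1 had r = 0.65, which fell to -0.04 when 2 libraries were left out, so that this relation rested on them. The libraries with the most FKBP5, DOX 5 and MYO 1, are the pair that the namings exchange. Centring DOX and MYO separately, to remove any difference between the drugs, left r at 0.77 for FKBP5 with TSC22D3 and at 0.85 for SGK1 with DUSP1 (adjusted permutation p = 0.169 and 0.0522).

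**Figure D5:**
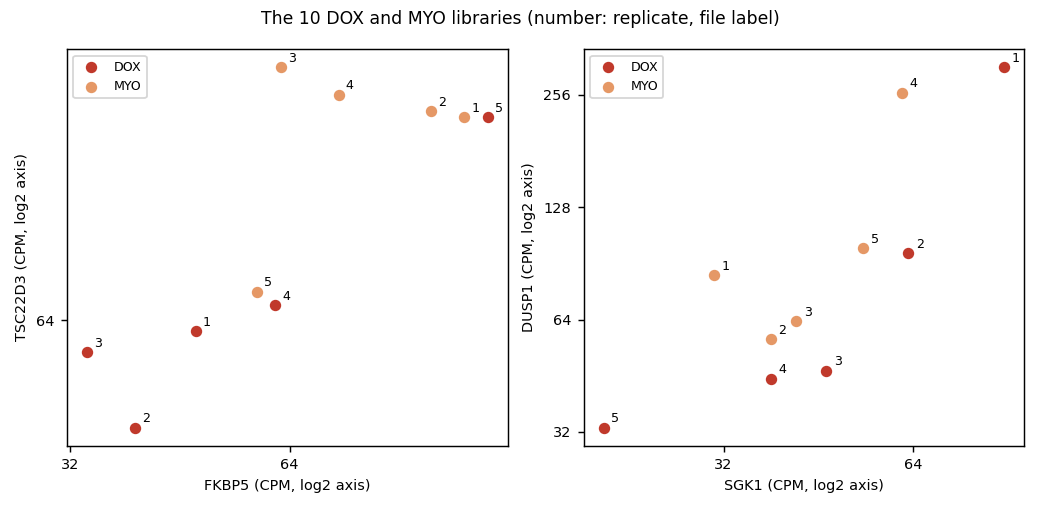
Levels in the 10 DOX and MYO libraries on log2 axes, FKBP5 against TSC22D3 (left, r = 0.81) and SGK1 against DUSP1 (right, r = 0.82); each point is 1 library with its replicate number by file label. DOX 5 lies beside MYO 1 on the left, with the highest FKBP5 level, and at the lowest SGK1 and DUSP1 levels on the right.

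Further known targets of the receptor were read from a list of 28 genes, of which 26 were tested. By the file labels 2 were higher and 7 lower in DOX, 1 and 7 in MYO, 2 and 6 in RemoLV, and 0 and 0 in Hyper (2418 genes overall at an unadjusted p under 0.05), with median log2 fold changes of -0.18, -0.32, -0.41 and -0.23. Of all genes 21% were called higher and 21.1% lower in DOX, 20.7% and 21.7% in MYO and 23.1% and 24% in RemoLV, and these shares are the background of the lists that follow too. PDK4, the kinase that shuts down pyruvate oxidation, was at 2761 ± 826 CPM in Control, 143 ± 97.8 CPM in DOX and 123 ± 78.8 CPM in MYO (log2 fold change -4.27, adjusted p = 5.51e-05, and -4.49, adjusted p = 3.90e-05). It was lower by the table names as well (-2.49, adjusted p = 0.00378, and -2.90, adjusted p = 0.00128). IRS2, an insulin receptor substrate, rose in DOX (1.51, adjusted p = 0.0164), LPIN1, a lipid phosphatase, rose in MYO (1.00, adjusted p = 0.000807), and in RemoLV CRISPLD2 rose (1.49, adjusted p = 0.00018) and the cell cycle inhibitor CDKN1A fell (-2.44, adjusted p = 0.000994). PER1, a clock gene with response elements of its own, was at 281 ± 75.1 CPM in Control, 267 ± 102 CPM in DOX and 299 ± 60.9 CPM in MYO, and was not called by the file labels. PER1 was called higher in MYO by the table names (0.73, adjusted p = 0.0493). The table names gave 6 higher and 5 lower in DOX, 5 and 5 in MYO, 7 and 2 in RemoLV, and 6 and 1 in Hyper, where the all-gene shares were 15% and 14.6%, 14.8% and 14.4%, 24% and 23.2%, and 18.7% and 17.2%, led by ERRFI1 in DOX (2.52, adjusted p = 0.0326), CDKN1A in MYO (1.84, adjusted p = 0.00552) and the glutamine synthetase GLUL in Hyper (1.74, adjusted p = 0.000157). Without TMM scaling the file labels gave 6 higher and 2 lower in DOX and 5 and 3 in MYO. All genes moved at that setting too, to 5622 higher and 705 lower in DOX. In MYO they went to 5499 and 753, and in RemoLV to 6178 and 1038. These all-gene counts are also the background of the file-label counts without TMM scaling in the lists below.

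Proteins that hold the receptor ready were read next. Among 18 chaperones and cofactors tested, 0 were higher and 11 lower in DOX, 0 and 11 in MYO, 0 and 12 in RemoLV, and 0 and 0 in Hyper by the file labels, with medians of -0.35, -0.45, -0.62 and -0.23. HSPA8, the constitutive HSP70, fell by 0.73 on the log2 scale in DOX (adjusted p = 0.0415), 0.96 in MYO (adjusted p = 0.00962) and 1.93 in RemoLV (adjusted p = 0.000123). The table names gave 6 higher and 0 lower in DOX, 5 and 0 in MYO, 12 and 0 in RemoLV and 8 and 1 in Hyper, with FKBP4, the co-chaperone that FKBP5 opposes, at 1.28 in Hyper (adjusted p = 2.17e-05) and 1.20 in MYO (adjusted p = 2.57e-05). Of all genes 15% were higher and 14.6% lower in DOX by this naming, and 14.8% and 14.4% in MYO. In RemoLV the shares were 24% and 23.2%, and in Hyper 18.7% and 17.2%. FKBP4 was not called in DOX by the file labels, DNAJB1, an HSP40, led in DOX by the table names (1.29, adjusted p = 0.0262), and CREBBP, a coactivator, was the one lower in Hyper (-0.66, adjusted p = 0.0111). HSP90AA1, the chaperone itself, is listed at 0 in every library. Without TMM scaling 4 were higher and 0 lower in DOX by the file labels, where all genes gave 5622 higher and 705 lower. The direction of the calls in DOX and MYO differed between the namings.

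Metabolic and clock lists connected to the members were read in the same way. Of 10 tested genes that KLF15 regulates, 0 were higher and 4 lower in DOX, 1 and 4 in MYO and 0 and 8 in RemoLV by the file labels, and KCNIP2, a potassium channel subunit, fell most in RemoLV (-2.95, adjusted p = 1.56e-06), where KLF15 was lowest. KCNIP2 is also on the list of ventricular cardiomyocyte markers, whose sum was lowest in the libraries labelled RemoLV. The part of this in the KCNIP2 values, under either naming, was not tested. Without TMM scaling the counts of the KLF15 list were 5 and 1 in DOX, 5 and 1 in MYO and 0 and 6 in RemoLV. PDK4 led the decreases in DOX and MYO, and ACSS1, an acetate-activating enzyme, rose in MYO (0.49, adjusted p = 0.0302). With the table names 7 were higher and 1 lower in DOX, 8 and 1 in MYO, 9 and 0 in RemoLV and 9 and 0 in Hyper, against 15%, 14.8%, 24% and 18.7% of all genes called higher, with KCNIP2 highest in each (2.58, 3.29, 2.95 and 3.18). The shares called lower were 14.6%, 14.4%, 23.2% and 17.2%. Both sets of shares are the background of the table-name counts of the next list too. Of 11 PPAR targets, the class to which ANGPTL4 belongs, 0 were higher and 7 lower in DOX, 1 and 4 in MYO and 1 and 4 in RemoLV by the file labels, and by the table names 2 and 4, 2 and 3, 5 and 1 and, in Hyper, 4 and 0, with UCP3, a mitochondrial carrier, at -4.30 (adjusted p = 0.000538) in RemoLV by the file labels. CPT1A, which brings fatty acids into mitochondria, was the one higher there (0.78, adjusted p = 0.0154), and the fatty acid carrier FABP3 led by the table names in DOX (1.42, adjusted p = 4.06e-05) and MYO (1.49, adjusted p = 2.42e-05). Without TMM scaling the PPAR counts by the file labels were 2 and 3 in DOX, 2 and 2 in MYO and 4 and 2 in RemoLV, and in Hyper by the table names 1 and 1. All genes gave 970 higher and 4134 lower in Hyper at that setting and naming.

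Of 18 clock genes 5 were higher and 3 lower in DOX, 6 and 4 in MYO and 6 and 5 in RemoLV by the file labels, and by the table names 6 and 4, 4 and 4, 5 and 6 and, in Hyper, 4 and 4. All genes were called at 20.7% to 24% in each direction by the file labels and at 14.4% to 24% by the table names. DBP, a clock output factor, rose in DOX (2.36, adjusted p = 0.00343) and MYO (3.00, adjusted p = 0.000582), and RORA, a nuclear receptor of the clock, fell (-0.90, adjusted p = 0.00262, and -1.37, adjusted p = 0.000102) by the file labels; neither was called in these groups by the table names. Of 14 immediate-early genes, by the file labels 3 were higher and 0 lower in DOX, led by FOSB (5.55, adjusted p = 0.0227), 0 and 1 in MYO and 0 and 3 in RemoLV, and without DOX 1 the DOX count was 0 higher and 3 lower of 13. With the table names 8 were higher and 0 lower in DOX, 1 and 0 in MYO, 2 and 0 in RemoLV and 1 and 0 in Hyper, and without DOX 1 the DOX count was 6 and 0 of 13. Of 10 tested genes downstream of SGK1 or the mineralocorticoid receptor, 1 was higher and 3 lower in DOX, 0 and 2 in MYO and 1 and 4 in RemoLV by the file labels, with NEDD4L, the ubiquitin ligase that SGK1 inhibits, higher in DOX (0.40, adjusted p = 0.0324) and RemoLV (0.60, adjusted p = 0.0047). FKBP5 is itself on that list and led its decreases in DOX and MYO. Without TMM scaling these counts were 3 and 2, 4 and 2 and 4 and 3. The table names gave 2 higher and 0 lower in DOX, 3 and 0 in MYO, 4 and 1 in RemoLV and 2 and 1 in Hyper, and without TMM scaling 2 and 0, 2 and 0, 3 and 4 and 1 and 2. All genes then gave 1388 higher and 1852 lower in DOX and 1312 and 1921 in MYO. In RemoLV they gave 1036 and 6177, and in Hyper 970 and 4134.

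The genes whose pattern over all 19 libraries was most like each member were sought among all genes tested, by Pearson r of log2 CPM, which is given as a description since the libraries share groups and scaling. KLF15 was followed most closely by GADD45A (r = 0.91), a stress-induced growth arrest gene, and SLC1A3 (0.90), a glutamate transporter. SGK1 and DUSP1 shared KLF4 as their nearest gene (0.90 and 0.88), an early-response transcription factor, and ZFP36 (0.83), which destabilises cytokine mRNAs, came second for DUSP1. FKBP5 was nearest to NACA (0.92), a nascent chain binding protein, and NSA2 (0.92), a ribosome assembly factor. ANGPTL4 was nearest to SUOX (0.91) and CPE (0.86), and ZBTB16 to RABGGTB and RBM8A (0.89 each).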

How the data were processed

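PolyA RNA of 19 pigs, labelled as left ventricular, was sequenced, and the authors deposited raw counts per Ensembl gene for each library, made per the labels and the processing notes with STAR and HTSeq 0.11.1 on Sscrofa11.1. The authors also deposited 1 gene table with log2 expression values per library and gene symbols. Its symbols were used to find the members, its per-library values were used only to match its columns to the count files (a Spearman correlation of 1 for each), and its columns of fold changes and adjusted p-values were not used. The members and gene lists were chosen with earlier results of these data known.

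Counts were fitted in edgeR 4.0.16 (R 4.3.3; TMM scaling, filterByExpr, quasi-likelihood test, 1 model of 5 groups, Benjamini-Hochberg adjustment), once with the groups of the file labels and once with those of the table names, and calls were made at an adjusted p of at most 0.05. CPM used the TMM-scaled totals. All p-values of comparisons between groups come from edgeR unless DESeq2 1.42.0 is named, and the labels give 1 library per pig. Intervals use the degrees of freedom of the fit. Correlations were tested with 100000 permutations of log2 CPM (prior count 2). The fitting step was checked on simulated counts in which 200 genes carried known changes. All 10 members, PER1, NR3C2, HSD11B2 and H6PD were named, and from each list described the called genes with the largest increase and decrease in a comparison with Control. Motifs were counted in the RefSeq Sscrofa11.1 genome. Alternatives were DESeq2, no TMM scaling, other filters on low counts, the compared groups alone, a replicate block and each library left out. Total counts of 9527710 to 20370209 put at least 64 reads on every member in every library. Replicate numbers are not stated to pair pigs.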

Additional observations from a re-analysis of the deposited data

Results flagged for a closer look

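In 40 groups of 5 libraries (20 under each naming, for the 10 members in DOX and MYO), the highest or lowest library was set against the rest by the gap to its neighbour over the range of the group (Dixon's criterion). Chance gives about 1 in 20 for independent groups of normal values. The namings share most libraries of DOX and of MYO, so the 40 groups are not independent, and the CPM were not log-transformed. The count is therefore not set against that rate. In all 8 stood out, 4 of them under the file labels. TSC22D3 was at 67.69 CPM in MYO 5, below the other MYO libraries under both namings. ANGPTL4 was at 49.3 CPM in DOX 1, above the other DOX libraries under both namings. DUSP1 was at 303.5 CPM in DOX 1, above the others under both namings, and at 259.7 CPM in MYO 4 under the file labels. ZBTB16 was at 150.6 CPM in the library that the table names put in DOX and the file labels call MYO 1.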

How the results depend on the processing

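The lower FKBP5 and ZBTB16 in DOX, MYO and RemoLV against Control by the file labels, and in the drug libraries against Hyper, kept their direction and their calls under every alternative run. Without TMM scaling the members called fell to 2 in DOX against Control by the file labels and to 2 for the drug libraries against Hyper under either naming. The cause was not tested. Under that setting these log2 fold changes reversed by the file labels: in DOX NR3C1 0.093, KLF9 0.017, KLF15 0.16, SGK1 0.14 and DUSP1 0.31; in MYO KLF9 0.090, KLF15 0.42 and HSD11B1 0.0072; in Hyper HSD11B1 0.12 and DUSP1 0.16; in RemoLV NR3C1 0.50 (-0.50 by the table names). For the drug libraries against Hyper NR3C1 became 0.12, SGK1 0.16 and DUSP1 0.23 (0.12, 0.16 and 0.24 by the table names), and TSC22D3 in Hyper by the table names became -0.091. Differences near 0 also turned with DESeq2 (DUSP1 in MYO -0.022, TSC22D3 in DOX -0.014), with at least 10 counts in every library (NR3C1 in RemoLV 0.031, and -0.031 by the table names), with no filter (DUSP1 in MYO -0.0012) and with the compared groups alone (DUSP1 in MYO -0.014).

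Same-numbered libraries of different groups did not deviate together (32 pairs, r from -0.25 to 0.24), so the numbers do not pair the pigs. With a replicate block 3 members were called in MYO against Control by the table names in place of 5 (lost were NR3C1, adjusted p = 0.0799, and KLF9, 0.0687), and all genes went from 2003 higher and 1948 lower to 1611 and 1554. Other calls lost were NR3C1 (0.0518) and KLF9 (0.126) in DOX and SGK1 in Hyper (0.0503) by the table names, and KLF9 against Hyper (0.0679 and 0.0845 under the namings). Gained by the file labels were HSD11B1 in MYO (0.0418) and DUSP1 in RemoLV (0.0432), and DUSP1 went to 0.028 against Hyper and -0.084 in MYO, and TSC22D3 to -0.042 in DOX, by the file labels.

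With 1 library left out at a time, by the file labels 3 to 6 members were called in DOX (fewest without Control 3, most without DOX 5), 3 to 5 in MYO (most without MYO 5), 6 to 7 in RemoLV (most without Control 2), 0 to 1 in Hyper (1 without Control 2), 0 between DOX and MYO, and 2 to 5 for the drug libraries against Hyper (fewest without Hyper 3, most without DOX 1). By the table names the ranges were 3 to 7 in DOX, 4 to 7 in MYO, 6 to 7 in RemoLV, 3 to 7 in Hyper, 0 between DOX and MYO and 2 to 5 against Hyper. The share of all genes called in either direction also moved in these fits, by the file labels from 27.4% to 44.7% in DOX, 28.1% to 45.8% in MYO, 35.7% to 52.8% in RemoLV, 0% to 18.4% in Hyper (highest without Control 2) and 18.3% to 36.4% against Hyper, and by the table names from 20.8% to 34.1%, 20.2% to 33.3%, 35.9% to 53.1%, 28.7% to 39.5% and 18.6% to 36.7%. The log2 fold changes that crossed 0 ranged as follows. In DOX vs Control by the file labels the values were ANGPTL4 (-0.77 to 0.65), DUSP1 (-1.04 to 0.13) and TSC22D3 (-0.15 to 0.27). In MYO vs Control by the file labels the values were DUSP1 (-0.56 to 0.17) and KLF15 (-0.23 to 0.090). In RemoLV vs Control by the file labels the values were NR3C1 (-0.11 to 0.14). In Hyper vs Control by the file labels the values were HSD11B1 (-0.10 to 0.027), DUSP1 (-0.82 to 0.28) and KLF9 (-0.14 to 0.24). In DOX vs MYO by the file labels the values were ANGPTL4 (-0.14 to 1.27), DUSP1 (-1.03 to 0.47) and SGK1 (-0.10 to 0.39). In DOX and MYO vs Hyper by the file labels the values were DUSP1 (-0.51 to 0.77), SGK1 (-0.25 to 0.013) and KLF15 (-0.037 to 0.15). In DOX vs Control by the table names the values were FKBP5 (-0.41 to 0.13) and ZBTB16 (-0.56 to 0.37). In RemoLV vs Control by the table names the values were NR3C1 (-0.14 to 0.11). In DOX vs MYO by the table names the values were ANGPTL4 (-0.15 to 1.26), NR3C1 (-0.079 to 0.021) and DUSP1 (-0.59 to 0.87). In DOX and MYO vs Hyper by the table names the values were DUSP1 (-0.42 to 0.77) and KLF15 (-0.0081 to 0.14).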
